A study of Mus musculus with 45 samples.

Results

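Cluster C4 was a set of 143 nuclei among the 34073 nuclei of a single-nucleus chromatin accessibility table from mouse Ter119+ erythroblasts. Its members were taken as every nucleus that the authors' deposited table assigned to cluster C4, and they made up 0.42% of all nuclei (95% Wilson interval 0.356 to 0.494). The nuclei came from 6 ATAC libraries of a 10x multiome experiment, 3 from Stag2 knockout mice (KO) and 3 from wild-type mice (WT), collected 6 to 8 weeks after pIpC dosing had ended in both genotypes. The KO libraries held 10, 40 and 24 C4 nuclei in replicates 1 to 3, and the WT libraries held 30, 13 and 26. The authors' table gives each nucleus a class, Early, Int or Late, and Int is read here as intermediate. C4 was compared with the 15539 other nuclei of class Int, library by library. The labels do not say whether each library came from a separate animal or pool, nor what drives the deletion, so p-values measure only the spread between these libraries.

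Stag2 belongs to cohesin, a ring-shaped protein complex that forms and holds loops of chromatin. Erythroblasts are the nucleated precursors of red blood cells, and Ter119 marks them from the stage at which haemoglobin genes are strongly used. As they mature, their chromatin condenses and accessibility narrows to a shrinking set of erythroid genes before the nucleus is expelled. In ATAC-seq a transposase cuts open chromatin, so that fragments from an intact nucleus gather at promoters and enhancers, and fragments spread evenly over the genome carry little of that pattern.

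C4 mixed the classes Int and Late. Of its 143 nuclei 74 were of class Int, 69 of class Late and 0 of class Early, so that 51.7% were Int. In each of the other 10 clusters the Int share was either at most 17.4% or at least 93.1%. By library the class Int nuclei of C4 numbered 6, 18 and 11 in KO and 10, 9 and 20 in WT. WT replicate 3 stood at 76.9% Int and WT replicate 1 at 33.3%, which is as far apart as any libraries were.

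Barcodes were shared between libraries far more often in C4 than elsewhere, and every result below carries this limit. A nuclear barcode is the short sequence that names a droplet, and libraries can hold some of the same sequences. In C4, 54 of 143 nuclei (37.8%) had a barcode that another of the 6 libraries also held, against 4.19% of the other Int nuclei and between 2.17% and 5.05% in the other clusters. They numbered 4, 12 and 9 in the KO libraries and 11, 6 and 12 in the WT libraries, so no single library held them. The 54 nuclei carried 30 distinct barcodes, and 18 of these barcodes were held by C4 nuclei of 2 or more libraries. Of the 24 barcodes found in 3 or 4 libraries, C4 nuclei held 12. Within the 31 pairs of C4 nuclei with the same barcode, the larger nucleus had a median of 1.09 times the fragments of the smaller, and at most 1.25 times. In 27 pairs of a C4 nucleus with a same-barcode nucleus outside C4 that median was 1.11. In 719 pairs of same-barcode nuclei with neither nucleus in C4 it was 1.79. Near-equal fragment numbers were thus not particular to pairs within C4. The partners outside C4 numbered 22, with 11 of class Int, 10 of class Late and 1 of class Early. Of these partners, 14 lay under the peak share by which C4 is divided later. Within C4 pairs of the same barcode, a median of 14.2% of the smaller nucleus's scored genes (range 9.13 to 48.1) were shared. In 1418 C4 pairs of different barcode and library, with the 2 nuclei of like depth, it was 13.1%. Those pairs were not matched to the depth or peak share of the same-barcode pairs. C4 nuclei with a shared barcode had a median of 1671.5 fragments and 23.4% in peaks, the others 3471 and 34.3%. The 2 medians therefore cannot tell whether a same barcode goes with more overlap. Whether same-barcode nuclei of different libraries were separate nuclei was not tested, nor how barcode sharing bears on the results beyond the values given for the 89 C4 nuclei whose barcode lay in 1 library only.

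C4 nuclei were shallow. Their median number of fragments was 2348, 2467.5 and 1808.5 in KO replicates 1 to 3 and 3169.5, 1705 and 1860.5 in WT replicates 1 to 3. The medians of the other Int nuclei lay between 10184 and 15042, above C4 in every library. Among the C4 nuclei whose barcode lay in 1 library only, the library medians averaged 3981 ± 2388 in place of 2227 ± 555, and KO replicate 1 reached 8354.5, nearer to the 14563 of its other Int nuclei. Over all nuclei, C4 had a median of 2232 fragments, and the next shallowest cluster, C1, had 3555.5. The range within C4 was wide, from 1000 to 32097. All C4 nuclei together held 659686 fragments, and a library's C4 mean rested on 58306 to 231128 of them. The depth is part of how the cluster was described, so it was given no test.

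Fragments of C4 nuclei were less concentrated at open sites, in every library. The median share of fragment ends inside peaks was 37.7%, 26.2% and 27.3% in the KO libraries and 22.6%, 31.6% and 25.7% in the WT libraries. The other Int nuclei had 56.9% ± 2.58 (SD, n = 6 libraries) and no library of theirs came near the C4 values. The difference was -28.4 percentage points ± 6.56, lower in 6 of 6 libraries. The cluster was formed from the accessibility that these measures summarise, so differences in them from other Int nuclei are descriptions with no test. Enrichment of fragments at transcription start sites, a common measure of signal to background, was 17.5, 18.6 and 17.3 in KO and 16.4, 18.5 and 18.2 in WT, against 32.1 ± 2.03 in the other Int nuclei. That difference of -14.4 ± 1.84 was again present in 6 of 6 libraries. Low start-site enrichment was not particular to C4. Over all nuclei, cluster C7, with 689 of 732 nuclei of class Early, had a median of 18.3, near the 17.8 of C4. The share of fragment ends in promoters was 22.9% ± 3.62 in C4 and 45.1% ± 2.5 in the other Int nuclei, lower in 6 of 6 libraries. Blacklisted regions, repeats that collect artefactual reads, took 3.62% ± 0.239 of C4 ends and 4.58% ± 0.233 of the others, also lower in 6 of 6 libraries.

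Low shares in peaks and promoters also held against Int nuclei of equally low depth. For each C4 nucleus the 10 Int nuclei of its library nearest in fragment number were taken, which gave library medians of 2141 ± 563 fragments. These depth-matched nuclei had 58.0% ± 3.09 of ends in peaks and a start-site enrichment of 30.9 ± 2.09, with 45.7% ± 3.11 of ends in promoters. The gap in start-site enrichment was narrowest in WT replicate 2, at 18.5 in C4 against 28.2. The depth-matched Int nuclei thus had few fragments without a low median share in peaks, and the cause of the low share in C4 was not tested. When C4 was reduced to the 89 nuclei whose barcode lay in 1 library only, the differences from other Int were -20.0 points in peaks, -11.8 in start-site enrichment and -15.6 points in promoters. Each was lower in 6 of 6 libraries.

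**Figure D1:**
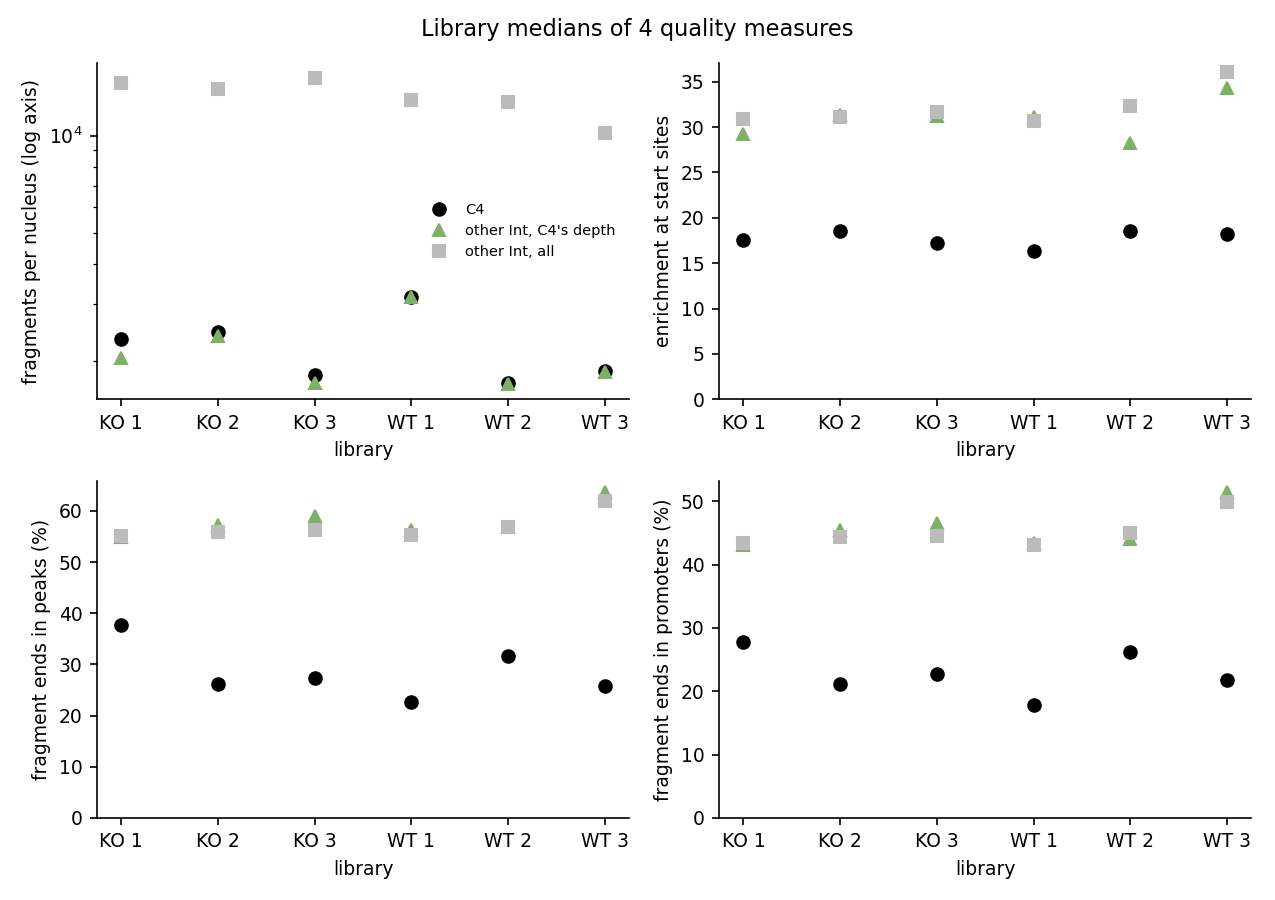
Medians per library of fragments per nucleus, start-site enrichment and the percentages of fragment ends in peaks and in promoters, for C4, other Int and depth-matched Int nuclei, one point per library, with fragments on a log axis. C4 lies below both reference sets in all 6 libraries for the last 3 measures, and the depth-matched nuclei lie near C4 in fragments and near the other Int nuclei in the rest.

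The nucleosome ratio, the number of fragments longer than a nucleosome's wrap relative to those shorter, was 0.932, 0.757 and 0.451 in KO and 0.473, 0.517 and 0.415 in WT, against 0.830 ± 0.0779 in the other Int nuclei. It was lower in 5 of 6 libraries, with KO replicate 1 the exception. Doublet enrichment, a score for resemblance to simulated mixtures of 2 nuclei, was 0.987 ± 0.650 in C4 and 1.01 ± 0.309 in the other Int nuclei, lower in 4 of 6 libraries. In the shallow depth-matched nuclei it was 0.584 ± 0.30, and C4 was 0.403 above that.

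The nuclei of C4 fell into 2 ranges of peak share. With a dividing value of 40%, chosen after the distribution was seen, 96 nuclei lay below and 47 at or above it, and 10 lay within 5 percentage points of it. Below the value were 5, 25 and 15 nuclei of the KO libraries and 21, 8 and 22 of the WT libraries, and at or above it 5, 15 and 9 of KO and 9, 5 and 4 of WT. The lower range had a median peak share of 23.4%, start-site enrichment of 15.5, nucleosome ratio of 0.423 and 1954.5 fragments. The upper range had 52.6%, 29.3, 0.876 and 4744 for the same measures, and the other Int nuclei 57.1%, 32.4, 0.815 and 12726. Median doublet enrichment was 1.37 in the upper range and 0.586 in the lower, on either side of the 0.971 of other Int nuclei. Both ranges mixed the classes, with 53 Int and 43 Late nuclei in the lower and 21 Int and 26 Late in the upper. Barcode sharing went with the lower range: 48 of its 96 nuclei (50%) shared a barcode with another library, against 6 of 47 (12.8%) in the upper range. Of the 397 nuclei outside C4 under 40% in peaks, 8.56% shared a barcode. Of all 493 nuclei under 40% in the table, 19.5% were in C4, and only 1.69% of the other Int nuclei lay there. A range cut from such a value is a range and not a cell type.

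**Figure D2:**
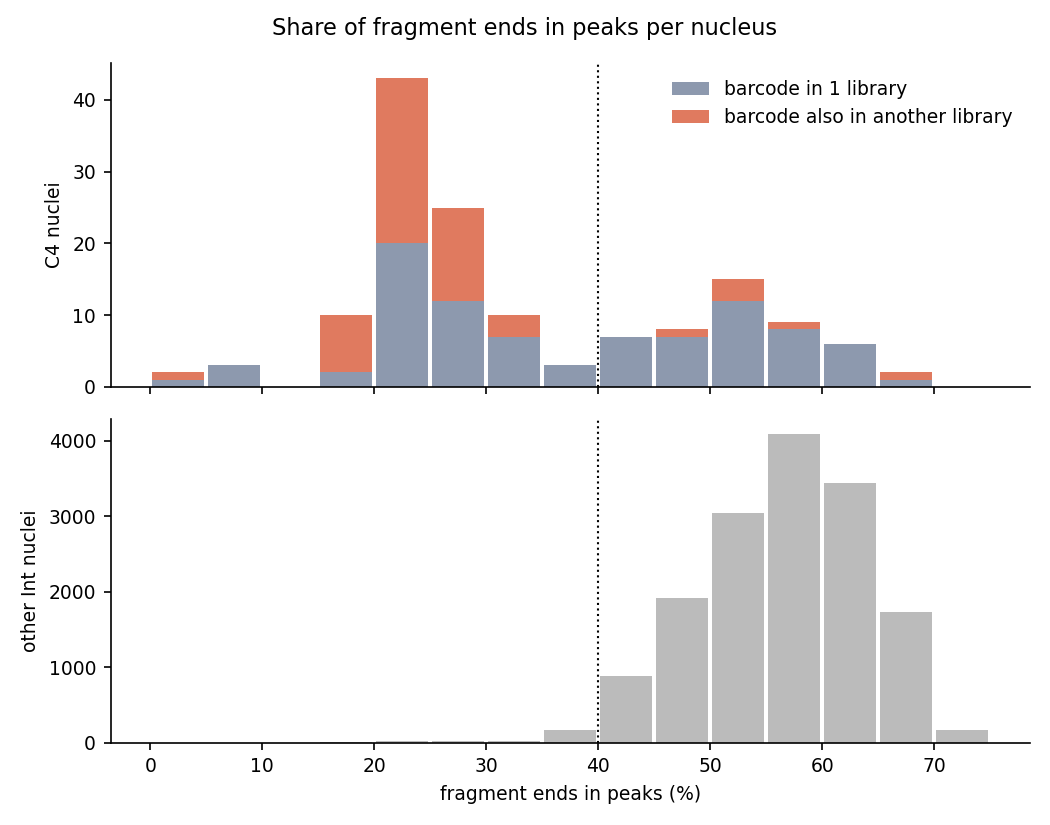
Number of nuclei (y axis) in steps of the percentage of fragment ends in peaks (x axis), for C4 nuclei above, coloured by whether the barcode lies in 1 library or also in another, and for other Int nuclei below. The dotted line marks 40%, with 96 C4 nuclei below it and 47 at or above it, whereas 1.69% of the other Int nuclei lie below.

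The erythroid marker genes given for the cluster, Klf1, Gata1 and Tfrc, were detected in C4 but below their level in other Int nuclei. Values are gene scores, the accessibility summed over a gene and its surroundings, averaged over the nuclei of a library and rescaled to a sum of 1000000 over genes. They measure open chromatin and not RNA. Differences of gene score from other Int nuclei are likewise described with no test. The differences are on the scale log2(score + 1), which understates changes of low genes. To show the sequence at the start sites concerned, the RefSeq promoter windows on build GRCm38.p6, 250 bases before to 50 bases after the start, are printed for both markers with a window at hand and for Ngp, the gene with the highest score difference of C4. They are Klf1 at chr8:84901732-84902031, Tfrc at chr16:32608646-32608945 and Ngp at chr9:110419558-110419857, all on the plus strand, with matches to the GATA motif in capitals.
Klf1: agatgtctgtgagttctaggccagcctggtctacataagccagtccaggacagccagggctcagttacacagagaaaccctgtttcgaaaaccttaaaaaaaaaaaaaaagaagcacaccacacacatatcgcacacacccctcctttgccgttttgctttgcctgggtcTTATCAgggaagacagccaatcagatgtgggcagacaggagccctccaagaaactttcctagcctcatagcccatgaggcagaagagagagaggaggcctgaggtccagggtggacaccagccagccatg
Tfrc: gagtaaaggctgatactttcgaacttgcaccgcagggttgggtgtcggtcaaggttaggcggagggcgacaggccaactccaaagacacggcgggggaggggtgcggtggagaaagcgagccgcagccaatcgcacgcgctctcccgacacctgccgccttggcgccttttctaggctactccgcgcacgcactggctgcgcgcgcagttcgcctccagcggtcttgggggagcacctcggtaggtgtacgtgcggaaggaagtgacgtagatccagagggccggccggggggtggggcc
Ngp: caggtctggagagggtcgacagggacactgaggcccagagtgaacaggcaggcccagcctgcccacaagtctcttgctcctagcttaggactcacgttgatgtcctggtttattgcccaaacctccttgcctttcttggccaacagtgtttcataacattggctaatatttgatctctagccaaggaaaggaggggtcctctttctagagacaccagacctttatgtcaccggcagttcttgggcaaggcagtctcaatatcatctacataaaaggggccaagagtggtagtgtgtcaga
The motif was searched as GATAA or GATAG, each preceded by A or T, on both strands. Klf1 held 1 match, beginning 80 bases before the RefSeq start, and Tfrc and Ngp held 0. The RefSeq start of Klf1 lay 54 bases from the gene start listed with the scores, whereas those of Tfrc and Ngp were the same. Of 32851 promoter windows of this length, 9778 (29.8%) held a match, and a match is a description of letters and not a bound site.

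Klf1, an erythroid transcription factor that activates globin genes, scored 248, 192 and 62.5 in the C4 nuclei of KO replicates 1 to 3 and 186, 37.8 and 61.5 in those of WT replicates 1 to 3. Other Int nuclei scored 241 ± 15.1, between 219 and 258, and C4 was lower in 5 of 6 libraries, by a mean log2 difference of -1.20 ± 1.16 (SD, n = 6). KO replicate 1, with 10 C4 nuclei, was the library in which it was not lower. Gata1, the master regulator of the erythroid lineage, scored 12.2, 14.7 and 29.3 in KO and 96.4, 23.1 and 14.8 in WT, against 84.4 ± 6.13 in other Int nuclei (log2 difference -1.78 ± 1.01, lower in 5 of 6). WT replicate 1 stood alone at the Int level. Tfrc, the transferrin receptor that brings iron into the cell, scored 102, 96.0 and 42.0 in KO and 96.1, 136 and 51.0 in WT, and was lower than the 159 ± 11.9 of other Int nuclei in 6 of 6 libraries (log2 difference -0.97 ± 0.68). Over all 6 libraries its C4 mean was 87.3 ± 35.1. Among C4 nuclei whose barcode lay in 1 library only, Tfrc scored 131 ± 72.1, nearer to other Int nuclei. Klf1 then scored 146 ± 89.1 and Gata1 44.4 ± 54.7, against 131 ± 87.8 and 31.7 ± 32.3 with all C4 nuclei. Depth alone lowers the chance of any fragment at a gene, so the share of nuclei with a score above 0 was set beside that of depth-matched nuclei. These shares pool the nuclei of all libraries and are a description. The share was 25.2% for Klf1 in C4, 39.8% in depth-matched Int and 74.5% in all other Int nuclei. For Gata1 the same shares were 15.4%, 31.3% and 66.2%, and for Tfrc 35.7%, 49.7% and 84.1%. The share of genes scored per nucleus was 14.3% in C4 and 13.8% in depth-matched Int. The cause of the lower marker shares in C4 was not tested.

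The markers differed between the ranges of peak share. Klf1 scored 248 ± 184 in the upper range, 51.5 ± 35.2 in the lower and 226 in a mixture of Int and Late nuclei in the proportions of C4. Tfrc scored 146 ± 62.0 in the upper range, 59.2 ± 62.1 in the lower and 160 in that mixture. Gata1 was at 23.7 ± 22.9 and 35.3 ± 38.6 in the upper and lower ranges, both under the mixture's 77.7. The ranges were divided by the share of the same fragments at open sites, so these levels are a description, and no cell type name is given to either range.

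Across genes, scores of C4 departed from other Int nuclei in both directions. Among 21457 genes with a mean of at least 5, 1079 (5.03%) were higher in C4 in all 6 libraries and 1360 (6.34%) lower, with a median log2 difference of -0.24. The balance depended on the scaling and the reference: at a mean of at least 20 there were 882 higher and 1261 lower, but 1014 and 788 with median centring, and 999 and 763 against Int nuclei of cluster C6. Against depth-matched Int nuclei there were 940 and 1149, and the median over all genes was -0.059. With 5 added before the logarithm that median was -0.025 against all other Int nuclei. Other sets of C4 nuclei moved the balance towards lower genes, to 321 and 980 for class Int only, 429 and 1038 for 1-library barcodes, and 95 and 617 for nuclei at or above 40% in peaks. The named genes were the 12 highest and 12 lowest among genes with a mean of at least 20 and the same sign in every library. That mean was taken over C4 and other Int nuclei together. The 12 highest genes averaged only 3.94 to 13.1 in other Int nuclei and passed it through their C4 scores. Ngp, a neutrophil granule protein gene, led with 121, 40.2 and 60.0 in KO and 97.1, 75 and 8.97 in WT, against 2.15 to 5.53 in other Int nuclei (log2 difference 3.47 ± 1.03). WT replicate 3 was the lowest C4 library and KO replicate 1 the highest. Its score was above 0 in 11.9% of C4 nuclei, 0.909% of depth-matched and 2.81% of all other Int nuclei. Vim, which encodes the intermediate filament protein vimentin that erythroid cells lose as they mature, scored 97.5, 90.4 and 65.7 in KO and 64.8, 19.8 and 90.0 in WT, against 5.04 to 7.98 (3.10 ± 0.87). Trib1, a pseudokinase gene, scored 78.8, 114 and 140 in KO and 34.3, 130 and 99.98 in WT, against 10.7 to 16.1 (2.72 ± 0.70). Nfil3, a transcription factor gene of lymphoid and myeloid cells, scored 61.2, 105 and 33.5 in KO and 82.8, 156 and 78.0 in WT, against 8.02 to 13.1 (2.70 ± 0.81). Trib1 had a score in 46 C4 nuclei (32.2%) and 7.62% of depth-matched Int nuclei, and Nfil3 in 38 C4 nuclei (26.6%) and 6.36%. The shares of Ngp, Trib1 and Nfil3 pool the nuclei of all libraries. These genes were chosen for their scores in the same nuclei, so the shares are a description.

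The other 8 of the highest genes were 1700029H14Rik (3.16), Fn1 (3.14), Gm10684 (2.91), A030001D20Rik (2.76), Mamstr (2.74), Gm2848 (2.72), Retnlb (2.69) and Egr3 (2.69), with log2 differences in parentheses. They were chosen for a positive sign in every library, and their Int levels were low and even, so that the libraries separate by the choice. A030001D20Rik and Mamstr are neighbours on chromosome 7 and may draw on the same fragments. Fn1, the fibronectin gene, scored 85.6 ± 58.3 in the lower range of peak share and 2.17 ± 5.32 in the upper, and its log2 difference was 0.20 when only nuclei with a barcode in 1 library were kept. By the same change Ngp went from 3.47 to 2.13 and Gm10684 from 2.91 to 1.45. Trib1 scored 144 ± 64.6 in the upper range and 72.0 ± 29.7 in the lower, and Nfil3 99.7 ± 65.8 and 81.3 ± 86.7. These means were above Int, but both genes were chosen for that direction in the same nuclei, so this is a description.

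The 12 lowest genes were Platr17 (-4.41), Utp3 (-4.19), Srms (-3.85), Mien1 (-3.80), Mir3107 (-3.56), Pigw (-3.46), Pole2 (-3.42), Mir451b (-3.28), Oas1c (-3.24), Cox11 (-3.11), Eid2b (-3.08) and Mmp11 (-3.05). Each was listed at 0 in 1 to 4 of the C4 libraries, so these log2 differences depend on the value added before the logarithm. Pole2, a subunit of a replicative DNA polymerase, scored 7.52, 8.35 and 0 in KO and 25, 0 and 0 in WT, against 37.2 ± 2.39 in other Int nuclei. Mir451b overlaps the locus of an abundant erythroid microRNA, and it scored 182, 211 and 108 in KO and 73.1, 0 and 0 in WT, against 253 ± 16.6. Its C4 libraries thus ran from 0 to near the Int level. Other Late nuclei scored under Int at both genes, at 20.8 for Pole2 and 133 for Mir451b. A mixture of Int and Late nuclei in the proportions of C4 scored 30.0 for Pole2 and 201 for Mir451b, which KO replicate 2 exceeded for Mir451b.

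**Figure D3:**
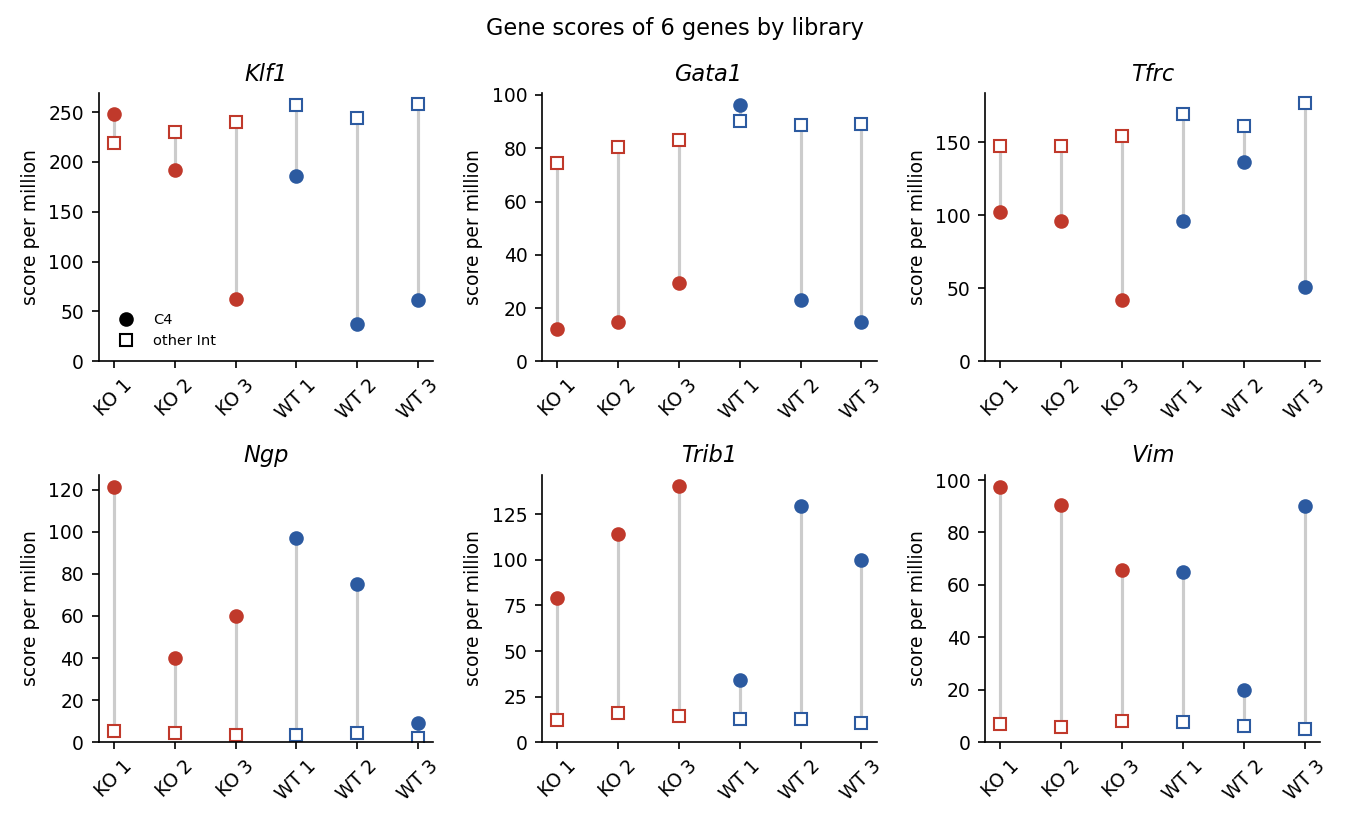
Gene scores (y axis, rescaled to a sum of 1000000 over genes) of Klf1, Gata1, Tfrc, Ngp, Trib1 and Vim in each library (x axis), with filled points for C4, open squares for other Int nuclei, red for KO and blue for WT. C4 lies below other Int nuclei in 5 of 6 libraries for Klf1 and Gata1 and in 6 of 6 for Tfrc. Ngp, Trib1 and Vim lie above them in all 6, for which they were chosen.

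Gene lists of the erythroid programme were lower in C4. The 15 early erythroid genes summed to 1250 ± 116 in C4 and 2010 ± 122 in other Int nuclei (log2 ratio -0.69, lower in 6 of 6 libraries). Of them 4 were lower in every library, namely Zfpm1, Car2, Lmo2 and Tfrc, and 0 were higher, beside 6.34% lower and 5.03% higher among all genes. The list median was -0.87 against -0.24 for all genes. Zfpm1, the FOG1 partner of Gata1, scored 288 ± 61.7 in C4 and 519 ± 37.8 in other Int nuclei. The late erythroid list of haemoglobin, haem synthesis and membrane skeleton genes summed to 5241, 4135 and 4277 in KO and 3978, 3949 and 4014 in WT, against 5862 ± 293. It was lower in 6 of 6 libraries, 8 of its 34 measured genes at a mean of 5 were lower in every library and 0 higher, beside the same shares of all genes, and the median was -0.70. Those 8 included Alas2, the first enzyme of haem synthesis in red cells, at 50.3 ± 17.3 against 90.1 ± 3.55. Other Late nuclei summed to 8008 ± 343 on that list, and the class Int and class Late nuclei of C4 to 4239 ± 1344.5 and 4441 ± 1063. By these means both classes within C4 lay below the other Int and other Late nuclei, and above the Early nuclei at 3868 ± 180. The class Late sums of C4 rested on only 4 nuclei in KO replicate 1 and 4 in WT replicate 2.

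Genes of DNA replication and mitosis were lower in sum. Their 30 members summed to 2181 ± 175 in C4 and 3338 ± 107 in other Int nuclei, lower in 6 of 6 libraries, with 7 members lower throughout beside 6.34% of all genes (Pcna, Gins1, Cdc6, Mki67, Cdk1, Cdc20 and Birc5) and 0 higher. Mki67, the gene of the proliferation antigen Ki-67, scored 146, 123 and 145 in KO and 155, 130 and 129 in WT, all far under the 251 ± 10.7 of other Int nuclei. The 15 cohesin and CTCF genes summed to 965 ± 269 against 1197 ± 45.4, lower in 5 of 6 libraries, with WT replicate 2 higher at 1502 against 1223. Among them Rad21, Mau2 and Ctcf were lower in every library, 3 of 15 beside 6.34% of all genes. Ctcf, whose protein halts cohesin at loop anchors, scored 53 ± 31.2 against 117 ± 7.86. Ribosomal protein genes summed to 8681 ± 731 against 10118 ± 179, lower in 6 of 6 libraries. Of 100 genes 7 were lower throughout, near the 6.34% of all genes, and 1 was higher, under the 5.03% of all genes. The list median was -0.64 against -0.24 for all genes.

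Immediate early genes, which respond within minutes to stimuli and handling, went the other way in part. The 20 genes summed to 2567 ± 133 in C4 and 2250 ± 133 in other Int nuclei, higher in 6 of 6 libraries, with 6 members higher throughout, 2 lower and a median of 0.13. Among all genes 5.03% were higher throughout and 6.34% lower. Depth-matched Int nuclei summed to 2450 ± 297 on this list and Early nuclei to 2555 ± 81.8, so the C4 level was not particular to C4. Jun scored 167, 72.9 and 145 in KO and 69, 188 and 168 in WT, against 37.1 ± 11.0 in other Int nuclei. Klf2 scored 121 ± 51.9 against 21.7 ± 3.09 and Nr4a1 79.3 ± 50.3 against 11.2 ± 2.01. Fosl2, Egr3 and Zfp36 completed the 6, and Jund and Dusp1 were the 2 lower members. The upper range of peak share summed to 3284 ± 316, above other Int nuclei in 6 of 6 libraries, while the lower range was at 2163 ± 296, above other Int nuclei in 2 of 6 libraries and below them in 4.

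Several lists of markers of other cell types were higher in sum, with few members higher in every library. The stem and progenitor list summed to 1023 ± 89.6 in C4 and 593 ± 75.5 in other Int nuclei, with 3 of 21 genes higher throughout (Flt3, Fli1 and Etv6) beside 5.03% of all genes. Early nuclei summed to 966 ± 171 on that list. The neutrophil list summed to 671 ± 243 against 322 ± 24.1. It was uneven, at 781, 836 and 909 in KO and 773, 359 and 368 in WT, so that every KO library lay above every WT library, a difference given no test. The other Int nuclei did not overlap either, at 336, 344 and 343 in KO and 321, 307 and 282 in WT, so this was not particular to C4. In C4 the late erythroid sums (KO higher) and the cohesin sums (KO lower) also did not overlap. The cohesin sums of other Int nuclei did not overlap either, at 1159, 1150 and 1160 in KO and 1240, 1223 and 1250 in WT. The late erythroid sums of other Int nuclei overlapped, at 5537, 5730 and 5725.4 in KO and 6246, 5725.2 and 6210 in WT. Among single genes 9.32% did not overlap in C4. The neutrophil list had 2 of 19 genes higher throughout (Cebpa and Ngp) beside the same 5.03%. Cebpa, a transcription factor of granulocyte precursors, scored 78.3 ± 48.5 against 16.1 ± 2.13. Granule genes were uneven: Elane was listed at 0 in all 3 WT libraries, and S100a8 was at 0 in 3 of the 6. The B lymphoid list summed to 555 ± 121 against 256 ± 27.3, yet none of its 19 genes was higher in all 6 libraries. Pax5 and Ebf1, which specify that lineage, were each higher in 5 of 6. T and NK genes summed to 449 ± 127 against 275 ± 28.9, with 1 of 18 genes higher throughout, near the 5.03% of all genes, and stromal and endothelial genes to 419 ± 50.8 against 274 ± 18.5. Monocyte and macrophage genes summed to 597 ± 164 against 405 ± 13.2, higher in 5 of 6 libraries. Mast and basophil genes were at 206 against 126, plasma cell genes at 387 against 310, and megakaryocyte genes at 650 against 698. The p53 and apoptosis list stood at 1800 ± 248 against 2302 ± 58.4, lower in 6 of 6, and the interferon list at 1219 ± 280 against 1279 ± 51.2, lower in 4 of 6. The 10 genes at the ends of the KO effect in earlier results summed to 291 ± 45.6 against 303 ± 58.2.

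Odorant and pheromone receptor genes, which are used in sensory neurons and not in blood cells, were higher in sum, with few single genes higher in every library. A gene at 0 in a C4 library cannot count as higher there, so sparse scores limit such counts and lower a median. At a mean of 5, 3 of 722 receptor genes were higher in every library and 6 lower, beside 5.03% and 6.34% of all genes, and the median was -0.32, below the -0.24 of all genes. Their sum was 8432, 12633 and 11284 in KO and 17151, 7122 and 14624 in WT, against 6410 ± 496 in other Int nuclei and 6014 ± 570 in depth-matched ones. The C4 sum was higher in 6 of 6 libraries (log2 ratio 0.83 ± 0.48), although 137 of the 1433 genes were listed at 0 in all of them. It was 15166 ± 4624 in the lower range of peak share and 5196 ± 500 in the upper, where it equalled the 5206 of the mixture of Int and Late nuclei. In the lower range the mean erythroid sums were also lowest, at 3478 for the late list and 1049 for the early list, against 5535 and 1568 in the upper range and 6820 and 1930 in the mixture. The lower range was above the upper in 0 of 6 libraries for the late list and in 2 of 6 for the early list. The B lymphoid sum was 607 in the lower range, 459 in the upper and 215 in the mixture, and the stem and progenitor sum 1115, 792 and 552. The neutrophil sum was 654 ± 209, 735 ± 386 and 340, with the lower range above the upper in 2 of 6 libraries. Across libraries the sums did not share an order: WT replicate 2 had the lowest receptor sum and the highest B lymphoid (678) and stem (1104.5) sums, and in it the B lymphoid sum was higher in the upper range (967) than in the lower (498). The part of the receptor gene signal in the other sums was not tested. With nuclei of 1-library barcodes only, the sums were 4707 for late erythroid, 1453 for early erythroid, 1073 for stem and progenitor, 719 for neutrophil, 512 for B lymphoid and 10158 for receptor genes.

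**Figure D4:**
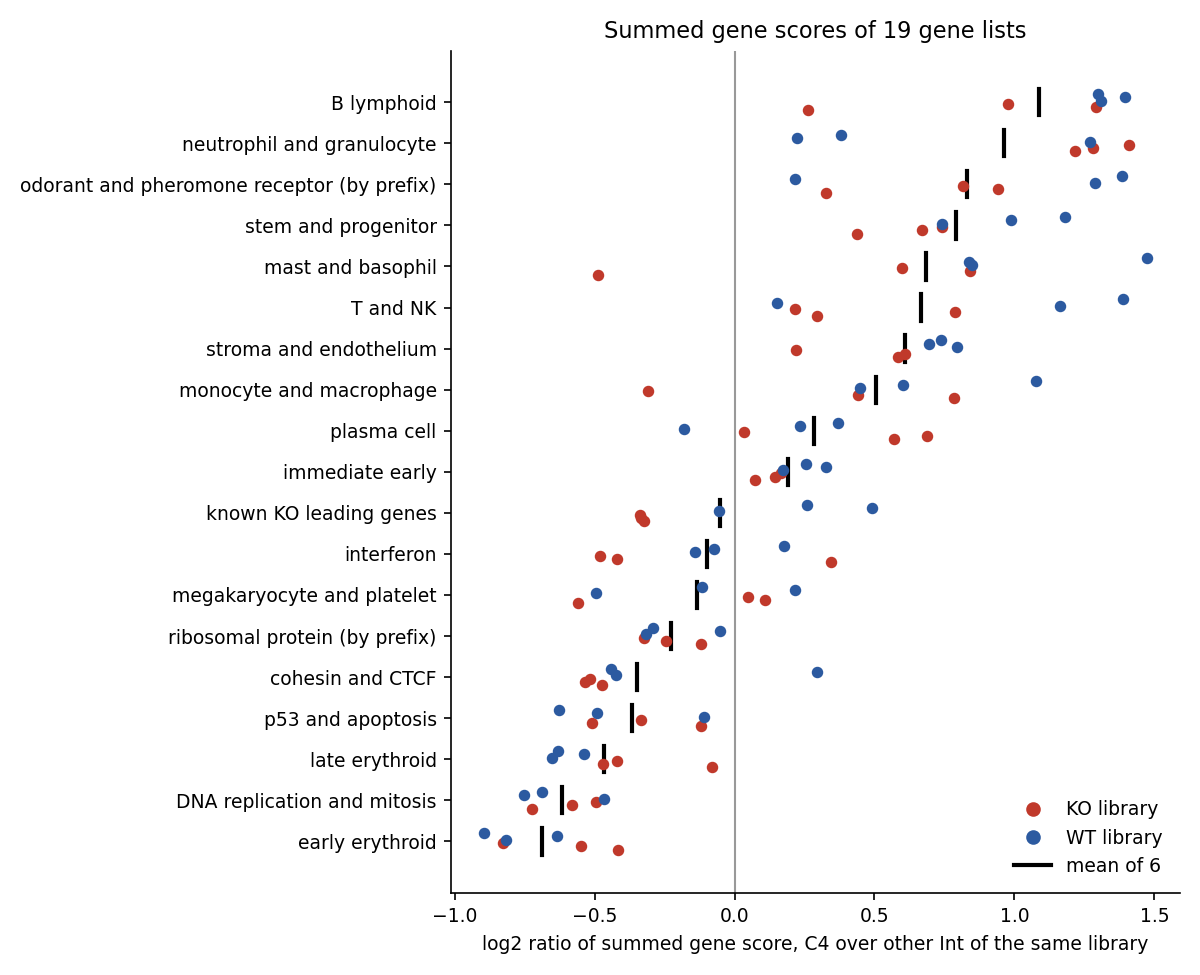
Log2 ratio of the summed gene score (x axis) of C4 over other Int nuclei of the same library for 19 gene lists, with a point per library, red for KO and blue for WT, and a black bar at the mean of 6. The early and late erythroid, replication and ribosomal lists lie below 0 in all 6 libraries, and the receptor, B lymphoid, neutrophil and stem lists lie above 0 in all 6.

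**Figure D5:**
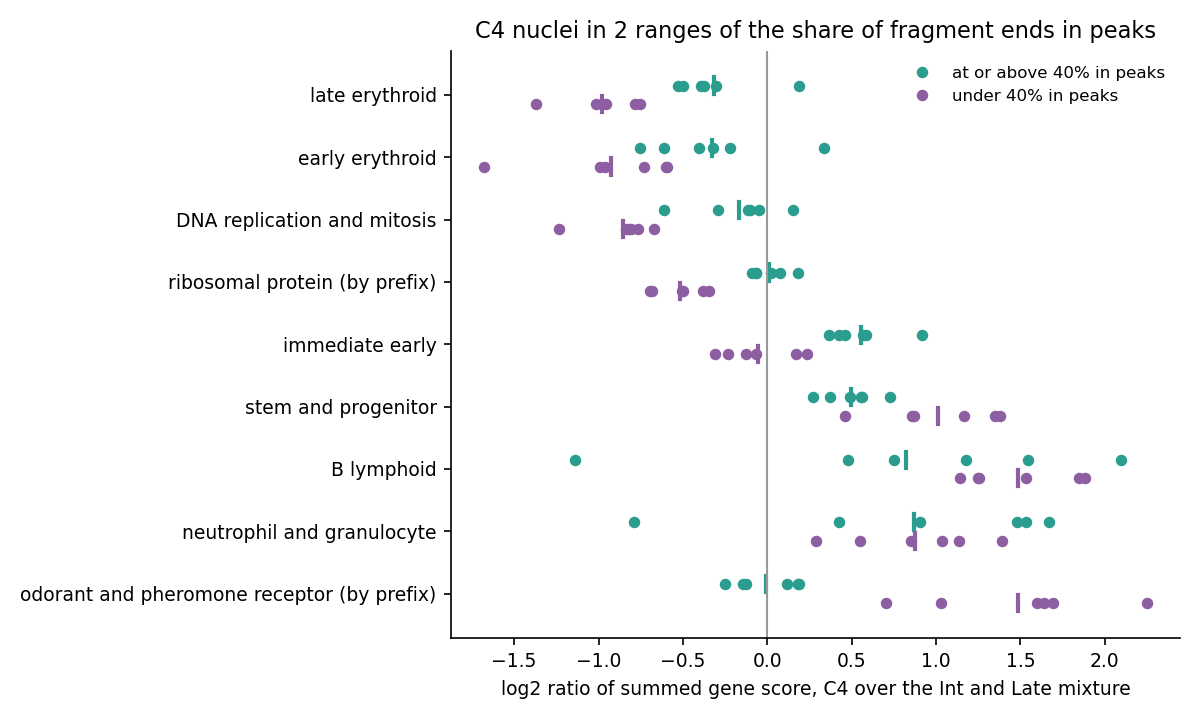
Log2 ratio of the summed gene score (x axis) of C4 nuclei over the Int and Late mixture for 9 lists, with a point per library and a bar at the mean, green for C4 nuclei at or above 40% in peaks and purple for those under 40%. The receptor genes of the upper range lie around 0 and those of the lower range above 0 in all 6 libraries, and the late erythroid list is below 0 in all 6 libraries for the lower range and in 5 of 6 for the upper.

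The share of C4 did not separate the genotypes. C4 nuclei of class Int made up 0.253%, 0.881% and 0.458% of Int nuclei in KO and 0.447%, 0.351% and 0.50% in WT, so that the KO libraries enclosed the WT libraries. The means were 0.531% ± 0.320 and 0.433% ± 0.0755 (exact permutation test, two-sided, p = 0.8, where 3 libraries against 3 cannot go below 0.1). Without KO replicate 2 the difference turned from 0.0979 to -0.0772 percentage points. Of all nuclei C4 took 0.520% ± 0.331 in KO and 0.344% ± 0.109 in WT (exact permutation p = 0.5).

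With all C4 nuclei, the KO and WT libraries overlapped in peak share and start-site enrichment. Peak share was 30.4% ± 6.36 in KO and 26.6% ± 4.61 in WT (exact permutation p = 0.5, adjusted p = 0.84 over 7 measures), and start-site enrichment was 17.8 ± 0.690 and 17.7 ± 1.17 (exact permutation p = 0.9). Doublet enrichment was 1.44 ± 0.609 in KO and 0.536 ± 0.276 in WT, with no overlap between libraries (exact permutation p = 0.1, adjusted p = 0.7). The other Int nuclei of the same libraries did not overlap either, at 1.11, 1.43 and 1.26 in KO and 0.667, 0.857 and 0.711 in WT, so this was not particular to C4. When only the 89 nuclei with a barcode in 1 library were kept, the genotypes parted on peak share, at 48.8%, 41.7% and 43.3% in KO and 25.7%, 34.0% and 28.2% in WT. The difference of 15.3 percentage points had an exact permutation p of 0.1, the smallest possible, and an adjusted p of 0.14. These medians rested on 2, 13 and 7 nuclei under 40% in KO against 11, 4 and 11 in WT, and on 4, 15 and 8 nuclei at or above it against 8, 3 and 3. Start-site enrichment then differed by 2.90 and the share in promoters by 11.5 points, each with the same exact permutation p. Nucleosome ratio (0.834 ± 0.130 against 0.602 ± 0.119) and blacklisted share (4.28% ± 0.388 against 3.46% ± 0.334) also did not overlap, with the same exact permutation p. That made 5 of 7 measures, all at an adjusted p of 0.14. Blacklisted share did not overlap in other Int nuclei either, at 4.84%, 4.72% and 4.78% in KO and 4.44%, 4.33% and 4.33% in WT. That setting was chosen after the data were seen.

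Gene scores of C4 did not pass the test for genotype at any gene. With limma on library means, 0 of 21628 genes (0%) had an adjusted p under 0.05, 1034 had an unadjusted p under 0.05, and the lowest adjusted p was 0.857. For 2016 genes (9.32%) every KO library lay on one side of every WT library. The median standard error of a log2 fold change was 1.33 in C4 and 0.103 in the other Int nuclei, where 3860 of 19416 genes (19.9%) passed. When other Int nuclei were taken 1 for each C4 nucleus at like depth, 0 of 17715 genes passed, 823 had an unadjusted p under 0.05, and the median standard error was 1.20. That set was a single draw matched on fragment number alone. A direct test of whether the genotype difference in C4 departed from that in other Int nuclei found 0 of 21457 genes (0%), with 921 at an unadjusted p under 0.05 and a lowest adjusted p of 0.982. Leaving out WT replicate 1 gave 6 genes for KO against WT and 3 for the difference.

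Individual genes showed the width of the errors. Klf1 had a log2 difference of 0.92 ± 0.62 (SE) between KO and WT in C4, Gata1 of -0.86 ± 1.21 and Tfrc of -0.23 ± 0.66 (limma adjusted p 0.981 to 0.988). Stag2 scored 38.3, 36.0 and 68.3 in KO and 53.8, 44.0 and 85.3 in WT, and Stag1, which encodes the alternative cohesin subunit, differed by -0.32 ± 0.60. The score sums accessibility over the gene, so it does not check the deletion. Gata2, the progenitor factor that Gata1 replaces, was 1.25 higher in KO among other Int nuclei on the log2 scale and -0.22 ± 0.92 in C4, and the test of that difference gave -1.47 ± 0.99 (limma adjusted p = 0.982). Irf1, an interferon response factor, was 2.25 higher in KO among other Int nuclei, and scored 27.5, 26.7 and 8.31 in KO and 22.0, 7.76 and 32.1 in WT of C4, where the libraries of both genotypes overlapped. Gmpr, a purine metabolism enzyme gene, scored 137, 28.7 and 76.2 in KO and 66.5, 3.10 and 15.4 in WT (2.04 ± 1.05 in C4, 2.45 in other Int nuclei). Apol11a scored 0, 55.6 and 42.7 in KO and 5.89, 1.90 and 0 in WT, and KO replicate 1, with 10 nuclei, was the KO library at 0. Gm2061 was listed at 0 in the C4 nuclei of all 3 KO libraries and scored 16.6, 19.6 and 68.3 in WT, while other Int nuclei scored 32.2 ± 0.538 in KO and 57.4 ± 3.65 in WT. Its test did not pass in C4 (limma adjusted p = 0.981) nor for the difference (limma adjusted p = 0.982).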

How the data were processed

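The 6 ATAC libraries (3 KO, 3 WT) of Ter119+ erythroblast nuclei were analysed. The submitters' processing notes name Cell Ranger and mm10, and the tool behind the gene scores, peaks and clusters is not given in the sources used here. The deposited gene score table holds a signal per gene and nucleus that sums to between 9999.9 and 10000 in each nucleus. The deposited table of nuclei gives counts of fragments, scores such as start-site enrichment and doublet enrichment, ratios such as the peak share as a fraction, and the cluster. Every nucleus has 2 identical entries there, of which 1 was used. Whether doublets were removed is not given in the sources used here, and none were removed here.

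Library means of the scores were rescaled to 1000000 and tested as log2(score + 1) with limma 3.58.1 in R 4.3.3 (variance trend, Benjamini-Hochberg, threshold 0.05, mean of at least 5, at least 5 nuclei per library). Fragments per nucleus limit the precision, and Wilson intervals cover counting error only. Shares and quality medians of KO against WT used exact permutation tests over libraries (Python 3.11.15, scipy 1.17.1). The permutation test planned for the quality measures of C4 against other Int nuclei is not reported, because the cluster was formed from the same accessibility. Named genes were Klf1, Gata1, Tfrc, Stag2, Stag1, Gata2, list members, the 12 highest and 12 lowest genes at a mean of at least 20 with 1 sign in all libraries, and genes at the ends of the KO effect in earlier results. The members and lists were chosen with earlier results of these data known. Scripts were tested on simulated data. Other pseudocounts, filters, scalings, weights and sets of nuclei were tried, and each library was left out in turn. Same-numbered KO and WT libraries did not deviate together in every pair (r of -0.0379, -0.0529 and 0.00871 over genes in C4, and of 0.157, -0.102 and 0.194 in other Int nuclei, not all above 0.1), so the numbers were not taken as pairs.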

Additional observations from a re-analysis of the deposited data

How the results depend on the processing

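A library's C4 mean rests on 10 to 40 nuclei, which limits the precision. Counts of genes that passed for KO against WT stayed at 0 under each alternative tried, except 1 with nuclei of low doublet enrichment (Mir3084-1, log2 -0.11) and 6 without WT replicate 1 (Snord87, Mir451b, Mir6960, Snora64, Mrps12 and Isg20). For the difference from other Int nuclei the count was 0 except for 3 without WT replicate 1 (Mir451b, Eral1 and Mir6960). The ranges with a library left out were 0 to 6 and 0 to 3. With a replicate block both counts were 0 and the share of C4 gave an exact permutation p of 1, so the block changed no call, and same-numbered libraries share only a number. Without KO replicate 2 the share difference reversed (range -0.0772 to 0.237 percentage points).

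Directions of KO against WT in C4, with no call, reversed as follows on the log2 scale. With low doublet enrichment Klf1 was -1.40, Stag2 0.26, Gata2 0.26 and Irf1 -2.32. With 1-library barcodes Gata1 was 0.34 and Irf1 -0.0094. With nuclei weighted by fragments Tfrc was 0.10, Stag1 0.049 and Irf1 -0.23. With at least 15 nuclei per library Stag1 was 0.014, Gata2 0.23 and Irf1 -0.78. Quantile normalization gave Gata2 0.10 and Irf1 -0.13, and weighting libraries gave Irf1 -0.17. For the difference from other Int, Apol11a was 0.62 with weighted libraries and 1.31 with at least 15 nuclei. With a library left out, Tfrc ran from -0.61 to 0.18, Gata2 from -1.18 to 0.44 and Irf1 from -0.51 to 0.58, and for the difference Apol11a from -1.49 to 1.48 and Gmpr from -1.54 to 0.60.

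For quality, KO less WT fragments were -37.0 by medians, 1180 by means and 2573 with 1-library barcodes, and -307 to 425 with a library left out. The ranges were -0.597 to 0.485 for start-site enrichment and -0.0938 to 4.11 points for promoters. C4 less other Int fragments were -9136 by means and 85.8 against depth-matched nuclei. With at least 15 nuclei per library, in 4 libraries, C4 less other Int was -14.8 for start-site enrichment, -31.9 points for peaks, -0.964 for blacklist and -24.7 for promoters. Leaving out a library gave -14.7 to -13.7, -30.6 to -26.8, -0.999 to -0.912 and -23.5 to -21.0. Nucleosome ratio by means was -0.235. Doublet enrichment was 0.0989 with 1-library barcodes, 0.403 against depth-matched nuclei and -0.214 to 0.0619 with a library left out.

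Genes of 1 sign in every library at a mean of 20 numbered 2143, of which 41.2% were higher (882 higher, 1261 lower). Median centring gave 56.3% higher (1014 and 788) and moved the median of all genes from -0.24 to -0.12, and against Int nuclei of cluster C6 56.7% were higher (999 and 763) with a median of 0.53. The number was 1301 with class Int only, 712 at or above 40% in peaks, 701 for that range against the mixture, 4761 with at least 15 nuclei, and 2531 to 3240 with a library left out, since fewer libraries must then share a sign. At or above 40% in peaks Fn1 was -1.72, Gm10684 -1.10, A030001D20Rik -0.22, Mamstr -0.11, the ribosomal list 0.089 and the receptor list -0.30. Against the mixture that range gave Fn1 -1.30, Gm10684 -0.85, ribosomal 0.0088 and receptor -0.0050. Under 40% the immediate early list was -0.067. Where no construction shows the cause, the cause was not tested. Settings by peak share, class, mixture and barcode were chosen after seeing the data.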
